A study of Mus musculus with 4 samples.

Results

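The cadherin set comprised 9 genes of the classical cadherins and their close relatives that are commonly followed when cells leave the epithelial state: Cdh1, Cdh2, Cdh3, Cdh4, Cdh5, Cdh6, Cdh9, Cdh11 and Cdh13. They were taken from 55487 genes in the table by their Ensembl identifiers, and all 9 were among the 14932 genes that passed the filter on low counts. Cadherins are cell surface proteins that bind the same or a related cadherin on a neighbouring cell through calcium-dependent extracellular repeats. The cytoplasmic tail of a classical cadherin holds beta-catenin and p120-catenin, and alpha-catenin links that complex to actin. When epiblast cells pass through the primitive streak and become mesoderm, E-cadherin (Cdh1) gives way to N-cadherin (Cdh2), and endothelial cells (ECs) that form later build their junctions on VE-cadherin (Cdh5). This exchange is often called the cadherin switch.

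RNA-seq libraries came from wild-type ES-E14TG2a mouse embryonic stem cells (mESCs), grown without feeders and collected at d4 and d2 of a differentiation towards ECs, with 2 libraries per day. Embryoid bodies that formed over 48 h were broken up, and for d4 their cells aggregated again over 40 h while exposed to VEGF (5 ng/ml), Activin A (8 ng/ml) and BMP4 (0.5 ng/ml). Cells at d2 had seen only the serum-free base medium, for 48 h, and none of these factors. The elapsed time, the factors and the reaggregation therefore cannot be told apart in a comparison of d4 with d2, and the whole culture was sequenced without a sort for any cell type. In such bulk RNA a lower value can come from fewer cells of a type or from less RNA per cell, and the data cannot tell these apart. The replicates were described as separate differentiation experiments of 1 line.

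The d4 libraries held 11397439 and 16851485 counts in genes, and the d2 libraries 12068584 and 14038796. Cadherin counts summed to 5569 and 10062 at d4, against 11754 and 11251 at d2. Markers fixed for the cell types that such a culture could hold differed between the days. Of 8 pluripotency genes 7 were lower at d4, 6 of 6 tested EC markers were higher, and 6 of 6 primitive blood and 6 of 6 primitive streak and early mesoderm markers were higher. The neuroectoderm markers Sox1, Pax6, Tubb3 and Elavl3, 4 of 4 tested, were lower. Of 4 tested cardiomyocyte markers Tnnt2 was higher, Myh6 and Actn2 were lower and Myl7 did not pass. Of 5 endoderm markers only Sox17 and Cer1 passed the filter on low counts, and both were higher. The remaining 3, Foxa2, Afp and Ttr, had at most 12 counts in a library and were not tested. The label of embryonic stem cells therefore describes the origin of the d4 cells and not their markers: Pou5f1, the transcription factor that defines pluripotency, had 4.39 and 3.82 CPM at d4, against 998 and 720 CPM at d2. CPM are counts scaled to a common library total, here with trimmed mean of M-values (TMM) factors. Replicates of a day correlated across genes at r = 0.978 (d4) and 0.985 (d2), and pairs of opposite days between 0.827 and 0.855.

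Cdh6 and Cdh9 are shown first by sequence, as the only members with a promoter in the reference used. These genes lie 3555 kb apart and moved in opposite directions. RefSeq promoter sequences of GRCm38.p6 (250 bases before to 50 after each gene's start) were matched for 2 of the 9 members, Cdh6 and Cdh9, both on chromosome 15. Printed 5′ to 3′ on the strand of the gene, each sequence below is the 50 bases that end with the longest run the promoters have in common, and the capitals mark that run of 15 bases.
Cdh6, chr15:13173679-13173728 (minus strand): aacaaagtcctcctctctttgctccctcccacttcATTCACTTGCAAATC
Cdh9, chr15:16728671-16728720 (plus strand): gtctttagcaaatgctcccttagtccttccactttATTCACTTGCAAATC
The run ended 4 bases before the start of Cdh6. For Cdh9 it ended 195 bases before the RefSeq start and 36 bases before the start of the gene in the GENCODE annotation. It was found in 2 of 32851 mouse promoters of that length (0.00609%), those of these genes. Because the run was picked from these 2 promoters, both matches were fixed in advance. How long a run other pairs of promoters share was not examined. Among short motifs searched on both strands, the E-box CAGGTG, the ETS-type motifs CAGGAAG and CCGGAAG and the GATA-type motif AGATAA had no match in either promoter, and were present in 20.2%, 13.3%, 8.86% and 11.2% of all promoters. The GC-box letters GGGCGG occurred at 2 places in the promoter of Cdh6 and at none in that of Cdh9, and in 35.7% of promoters. These matches describe letters within the window only.

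The summed output of the 9 cadherins was lower at d4, and its makeup changed from nearly all Cdh1 to a mixture. Summed CPM was 471 and 591 at d4, against 960 and 853 at d2 (531 ± 85.2 at d4 and 906 ± 75.5 at d2, SD, n = 2 each), a ratio of 0.586. The days did not overlap. With 2 libraries against 2, the exact two-sided permutation test of a single value cannot go below p = 0.333, so no test is given for sums or shares. The 8 members other than Cdh1 summed to 464 and 588 CPM at d4 and to 81.7 and 76.6 CPM at d2, a 6.65-fold difference of the means. The drop in the total was thus a drop in Cdh1, set against a smaller gain in the remainder.

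Cdh1 held 1.47% and 0.517% of the summed cadherin CPM at d4 (95% exact binomial intervals 1.17 to 1.82% and 0.386 to 0.677%), against 91.5% and 91.0% at d2 (91.0 to 92.0% and 90.5 to 91.5%). Such intervals cover counting error only. Undivided by transcript length, the share of Cdh11 was 38.1% and 58.7% at d4, against 0.162% and 0.169% at d2. Cdh5 held 28.9% and 15.1% at d4, and 0.00851% and 0.00889% at d2. Cdh2 held 22.6% and 17.7% at d4, against 3.17% and 4.00% at d2. Cdh11, Cdh5 and Cdh2 together made up 89.5% and 91.5% of the cadherin CPM at d4, against 3.34% and 4.18% at d2. The effective number of cadherins, which is the inverse of the summed squared shares and equals 1 when a single gene holds all, was 3.55 and 2.50 at d4 and 1.19 and 1.20 at d2.

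**Figure D1:**
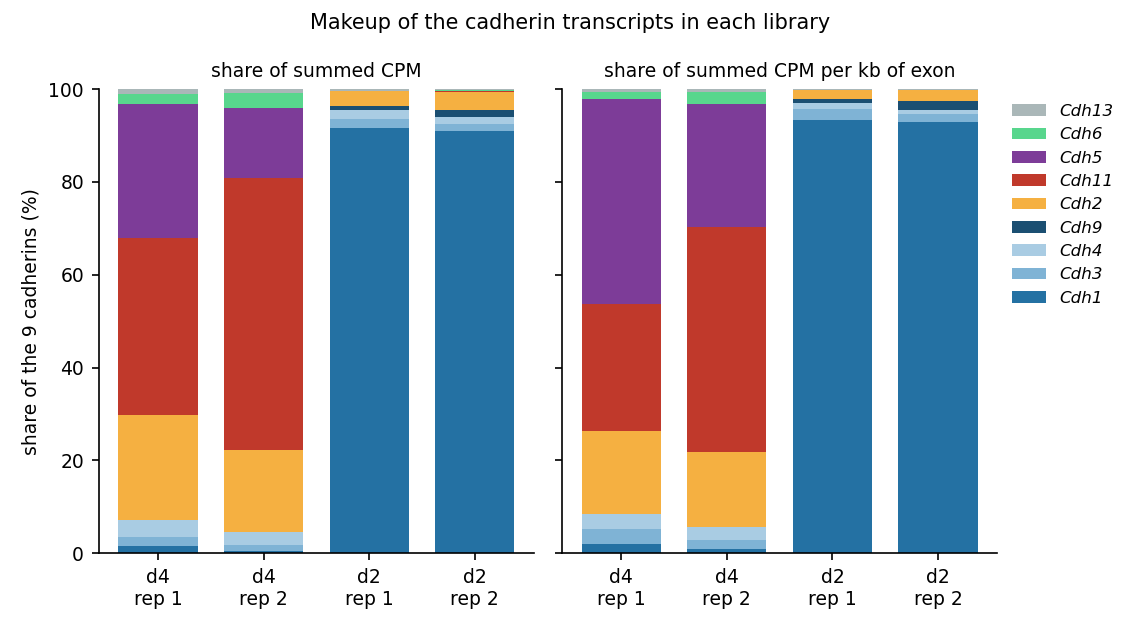
Share held by each of the 9 genes (y axis, percent) in each library, of the summed CPM in the left panel and of the summed CPM per kb of exon in the right panel, with d4 replicates left of d2 replicates. In the left panel Cdh1 fills 91.5% and 91.0% of the d2 bars, and Cdh11, Cdh5 and Cdh2 fill 89.5% and 91.5% of the d4 bars.

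A long transcript collects more reads than a short one, so the order of levels between genes is given only after division by the length of all annotated exons. In CPM per kb, the order at d4 was Cdh11 (29.6 ± 13.3, SD, n = 2), Cdh5 (26.8 ± 7.80), Cdh2 (13.1 ± 0.15), Cdh4 (2.30 ± 0.10), Cdh3 (1.95 ± 0.43), Cdh6 (1.58 ± 0.67), Cdh1 (1.09 ± 0.60), Cdh13 (0.472 ± 0.0023) and Cdh9 (0 in both libraries). Cdh11 and Cdh5 did not differ beyond their spread. In d4 replicate 1 Cdh5 led with 44.1% of the summed CPM per kb against 27.5% for Cdh11, and in replicate 2 Cdh11 led with 48.5% against 26.5% for Cdh5. Neighbours from Cdh4 down to Cdh1 also lay within each other's spread. At d2 the order was Cdh1 (181 ± 15.7 CPM per kb), Cdh2 (4.00 ± 0.32), Cdh3 (3.82 ± 1.24), Cdh9 (2.86 ± 1.08), Cdh4 (2.06 ± 0.60), Cdh13 (0.263 ± 0.039), Cdh11 (0.168 ± 0.0088), Cdh6 (0.0514 ± 0.034) and Cdh5 (0.0187 ± 0.00098). Cdh1 was clear of all others at d2, whereas Cdh2 and Cdh3, Cdh3 and Cdh9, Cdh9 and Cdh4, and Cdh6 and Cdh5 were not separated beyond their spread, the last pair resting on 3 and 9 counts for Cdh6 and 1 in each library for Cdh5. Per kb, Cdh1 held 2.07% and 0.832% of the total at d4 and 93.4% and 92.9% at d2.

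In the comparison of d4 with d2 by edgeR's quasi-likelihood test, 4 of the 9 cadherins were higher at d4 (Cdh2, Cdh5, Cdh6 and Cdh11), 2 were lower (Cdh1 and Cdh9) and 3 did not pass (Cdh3, Cdh4 and Cdh13). Across all genes tested, 12.9% were higher and 11.4% lower at the same threshold, a Benjamini-Hochberg adjusted p under 0.01, so 24.3% changed in either direction. The libraries of d4 and d2 did not overlap in CPM for 8 of the 9 members, all but Cdh4, beside 70.9% of all genes tested. Cdh2, Cdh5, Cdh6, Cdh11 and Cdh13 lay above d2 in both d4 libraries, as did 35.8% of all genes, and Cdh1, Cdh3 and Cdh9 lay below, as did 35.2%. The median log2 fold change of the members was 0.84, beside -0.03 for all genes. All adjusted p-values are from this fit unless another tool is named.

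**Figure D2:**
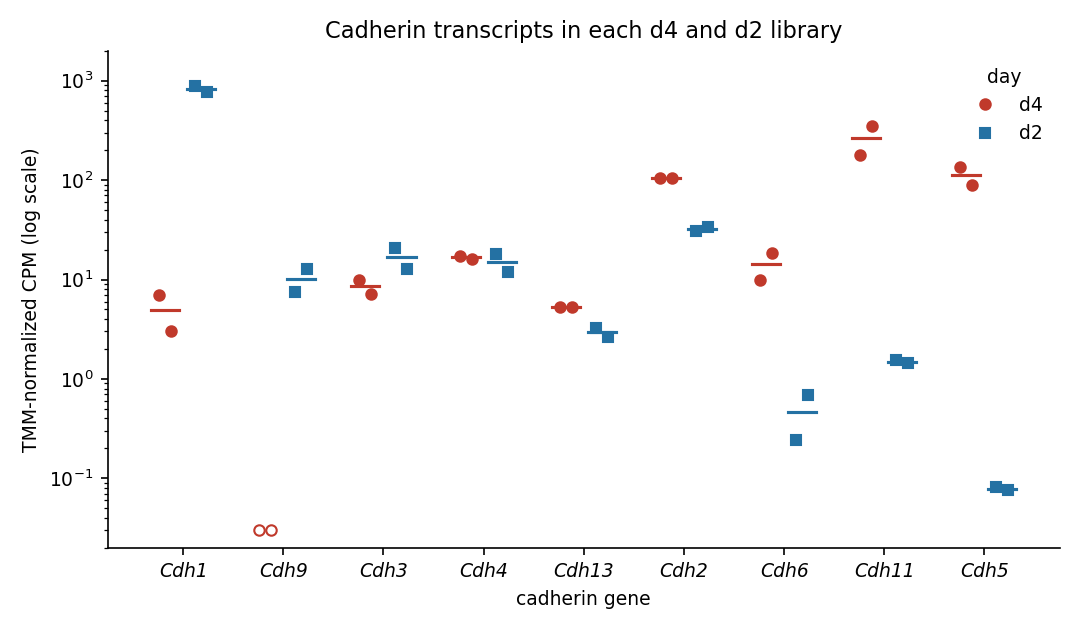
TMM-normalized CPM of each cadherin (log axis, not divided by length) in each library, with d4 circles to the left of d2 squares within a gene and a line at the mean of the day. Cdh5 has 136 and 89.5 CPM at d4 against 0.0817 and 0.0758 at d2, and the open circles at the bottom mark the 0 counts of Cdh9 in both d4 libraries, off the log scale.

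With either d2 library left out, edgeR called no gene at all (6257 genes had an unadjusted p under 0.05 without d2 replicate 1, and 5973 without d2 replicate 2), and the 6 members had adjusted p between 0.0182 and 0.0455. Their directions did not turn, and the log2 fold changes of Cdh1 (-7.31 and -7.55), Cdh2 (1.62 and 1.73), Cdh5 (10.36 and 10.21) and Cdh11 (7.52 and 7.36) without d2 replicate 1 and 2 stayed close to those with all libraries, while that of Cdh6 was 4.38 and 5.77. DESeq2 kept all 6 members past the threshold with any 1 library left out.

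Cdh1 encodes E-cadherin, the cadherin of epithelia and of the epiblast, which mESCs also carry (ENSMUSG00000000303.12, GRCm38 chr8:106603351-106670246, plus strand). It had 6.93 and 3.05 CPM at d4, from 82 and 52 counts, against 878 and 776 CPM at d2, from 10754 and 10241 counts. Both d4 libraries lay far below both d2 libraries, and within d4 replicate 1 was 2.27 times replicate 2. Cdh1 fell by 7.39 on the log2 scale (SE 0.45, adjusted p = 8.05e-05). The 3 genes whose profile over the 4 libraries was nearest to that of Cdh1, by Euclidean distance of library-centred log2(CPM + 1), were Pim2 (0.458), Pou5f1 (0.635) and Platr10 (0.677). The nearest tested genes on either side of Cdh1 did not pass: Gm10073, 29.9 kb away, had a log2 fold change of 0.03 (adjusted p = 0.945), and Tango6, 12.8 kb away, had -0.36 (adjusted p = 0.254).

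Cdh3, the gene for P-cadherin of placenta and basal epithelia, lies 46.1 kb from Cdh1 on the same strand (ENSMUSG00000061048.8, chr8:106510891-106557297). It had 9.89 and 7.23 CPM at d4, against 20.6 and 12.9 CPM at d2. The d4 values were below the d2 values without overlap, but the d2 libraries differed by more than the gap between the days. Its log2 fold change of -0.97 (SE 0.32) did not pass the test (adjusted p = 0.0503). It did pass when no filter was applied (adjusted p = 0.00667) and with a GC trend removed (adjusted p = 0.00922). With the replicate number as a block in edgeR it passed as well (adjusted p = 0.000169), though the labels do not say that numbers pair the days. The share of Cdh3 in the cadherin CPM, 2.10% and 1.22% at d4 and 2.14% and 1.51% at d2, overlapped between the days. On the other side of Cdh3, Zfp90 had a log2 fold change of 0.18 (adjusted p = 0.573).

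Cdh2 encodes N-cadherin, which mesoderm, heart and neural tissue carry (ENSMUSG00000024304.14, chr18:16588877-16809246, minus strand). It had 106 and 104 CPM at d4, against 30.5 and 34.1 CPM at d2. Its d4 replicates were the closest of the called members with counts at d4, and the days were well apart. The log2 fold change was 1.71 (SE 0.20, adjusted p = 0.000726), so N-cadherin RNA was already present at d2 and was 3.25-fold higher at d4 (95% counting interval 3.01 to 3.51). Of the called members, it had the smallest change. Aqp4, the nearest tested gene on one side at 1178 kb, fell by 4.53 on the log2 scale (adjusted p = 0.000506), opposite to Cdh2. It was the only call among the nearest tested genes of the 9 members that are not themselves cadherins.

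Cdh4, the gene for R-cadherin, first described in retina (ENSMUSG00000000305.12, chr2:179442431-179899373, plus strand), had 17.2 and 16.2 CPM at d4, against 18.0 and 11.9 CPM at d2. The values overlapped. Its log2 fold change was 0.15 (SE 0.27, adjusted p = 0.687), and its sign turned without d2 replicate 2 (-0.17). Although its CPM did not separate the days, its share of the cadherin CPM was 3.65% and 2.73% at d4 and 1.88% and 1.40% at d2, as the total was lower at d4.

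**Figure D3:**
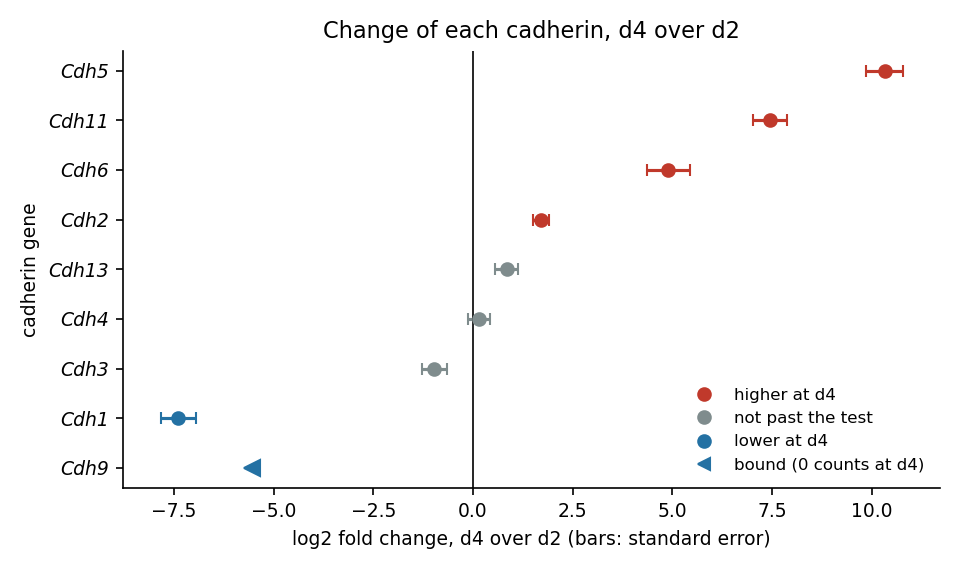
Log2 fold change of each cadherin, d4 over d2 (x axis), with bars of 1 SE and colours for the call at an adjusted p under 0.01. Cdh5 and Cdh11 lie farthest to the positive side (10.32 and 7.45), Cdh1 has -7.39, and the arrowhead of Cdh9 marks a bound because it had no counts at d4.

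Cdh5 encodes VE-cadherin, which is largely restricted to ECs and their hematopoietic relatives (ENSMUSG00000031871.9, chr8:104101625-104144511, plus strand). It had 136 and 89.5 CPM at d4, from 1607 and 1523 counts, against 0.0817 and 0.0758 CPM at d2, from 1 count in each library. The d2 values were thus at the limit of detection, and d4 replicate 1 was 1.52 times replicate 2. The ratio of scaled counts was 1380 with a 95% counting interval of 382 to 11397 (adjusted p = 4.13e-05). Summed EC markers other than Cdh5 were 1125 and 897 CPM at d4 and 24.7 and 22.7 CPM at d2, with all 6 that passed the filter higher and the seventh, Emcn, at 2 and 3 counts at d4 and 0 at d2. Summed primitive blood markers were 469 and 310 CPM at d4 and 2.12 and 2.05 CPM at d2. Both marker sums were higher in d4 replicate 1, by 1.25 times for ECs and 1.51 times for blood. The sums of all other marker lists were also higher in that library, from 1.07 times (primitive streak and early mesoderm) to 2.11 times (endoderm). Whether the share of ECs accounts for the Cdh5 values was not tested.

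Among other assays, the study followed Cdh5 by RT-PCR. The primer pair is printed here because it marks which part of the transcript was assayed outside these libraries. The study also followed VE-cadherin protein by flow cytometry, and reported no detectable positive cells at d2 and a small percentage at d4. It further targeted a putative regulatory element of Cdh5 in a modified mESC line and reported reduced Cdh5 expression. Quantitative PCR followed that reduction from d4 to later days. For most targeted genes it was clearer at the later days, which these libraries do not cover. Within the GRCm38 sequence of chromosome 8, the forward primer spans the junction of exons 6 and 7 of 12 (chr8:104129383-104130909) and the reverse primer lies in exon 7 (chr8:104130941-104130961), for an amplicon of 72 bases.
Cdh5 forward: tcatcaaacccacgaagtcc
Cdh5 reverse: ggtctgtggcctcaatgtaga
The profiles nearest to Cdh5 over the 4 libraries were those of Prdm6 (distance 0.176), Myzap (0.198) and Cyp26a1 (0.215). Tk2, the gene 82.2 kb from Cdh5, had a log2 fold change of 0.39 (adjusted p = 0.207).

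Cdh11 encodes OB-cadherin, a type II cadherin of mesenchyme and osteoblasts (ENSMUSG00000031673.6, chr8:102632095-102785642, minus strand). It had 179 and 347 CPM at d4, against 1.55 and 1.44 CPM at d2, from 19 counts in each d2 library. The days were far apart, while d4 replicate 2 was 1.93 times replicate 1, the opposite order to Cdh5. The log2 fold change was 7.45 (SE 0.44, adjusted p = 7.23e-05). Cdh5 is the next cadherin on the chromosome, 1316 kb away, and a further 2366 kb separate Cdh5 from Cdh3. On the other side, 3216 kb from Cdh11, lies Cdh8, which was also higher at d4. Genes annotated within Cdh11 on its strand held at most 16 counts in a library, in Gm45257.

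Cdh6 encodes K-cadherin, a type II cadherin of kidney and neural crest (ENSMUSG00000039385.5, chr15:13028701-13173675, minus strand). It had 9.97 and 18.5 CPM at d4, against 0.245 and 0.682 CPM at d2, from 3 and 9 counts. The days did not overlap, although replicate 2 exceeded replicate 1 by 1.86 times at d4 and 2.79 times at d2. The log2 fold change was 4.90 (SE 0.54, adjusted p = 0.000586), with a ratio of scaled counts of 31.8 (95% counting interval 18.0 to 62.0). Drosha, 93.4 kb from Cdh6, had a log2 fold change of -0.30 (adjusted p = 0.275).

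Cdh9, a type II cadherin known from synapses and the kidney (ENSMUSG00000025370.7, chr15:16728756-16857094, plus strand), had 0 counts in both d4 libraries, against 7.43 and 12.8 CPM at d2, from 91 and 169 counts. A floor of 3 counts per library, 0.254 and 0.176 CPM at d4, places it at least 47.1-fold lower at d4 (adjusted p = 0.000405). Its d2 replicates differed by 1.72 times. Between Cdh6 and Cdh9 there are 3555 kb, and Cdh10, the next cadherin beyond Cdh9 at 1962 kb, was lower at d4 like Cdh9. Summed neuroectoderm markers were 5.15 and 4.52 CPM at d4 and 107 and 87.4 CPM at d2, and the part of neural cells in the Cdh9 and Cdh10 values was not tested. The 15-base run printed above is thus shared by a gene that was higher at d4 and one that was lower.

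Cdh13 encodes T-cadherin, which lacks a cytoplasmic tail, is held in the membrane by a lipid anchor and is known from vessels (ENSMUSG00000031841.19, chr8:118283733-119324921, plus strand). It had 5.32 and 5.29 CPM at d4, against 3.27 and 2.65 CPM at d2. The days did not overlap, but the log2 fold change of 0.84 (SE 0.29) did not pass the test (adjusted p = 0.0602).

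Several members differed between replicates of a day, and base composition moved with part of that difference. The ratio of d4 replicate 2 to d4 replicate 1 was 1.93 for Cdh11 and 1.86 for Cdh6, whose longest transcripts have 44.9% and 42.4% GC. It was 0.659 for Cdh5 and 0.441 for Cdh1, with 52.2% and 50.7% GC, and 0.984 for Cdh2, with 49.5% GC. Cdh13, with only 45.3% GC, had a ratio of 0.993, and Cdh4, the member richest in GC at 54.6%, had 0.942. At d4, ratio and GC content thus did not run in the same order over the members. At d2 the ratio was 2.79 for Cdh6 and 1.72 for Cdh9, the member lowest in GC at 40.8%. It was 1.12 for Cdh2, 0.928 for Cdh11, 0.884 for Cdh1 and 0.812 for Cdh13. The lowest d2 ratios were 0.660 for Cdh4 and 0.626 for Cdh3, the latter with 52.1% GC. Cdh5, with 1 count in each d2 library, is left out. The median GC content of the genes tested was 49.7%. Across 14924 genes the ratio of replicate 2 to replicate 1 had a Spearman rho with GC content of -0.497 at d4 and -0.737 at d2, given as a description because genes of a library share its preparation and depth. With a GC trend removed from each library, the same 6 members were called in the same directions and Cdh3 was called lower as well. Which of Cdh11 and Cdh5 leads at d4 differed between libraries that also differed in GC response, and the part of base composition in that order was not tested.

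**Figure D4:**
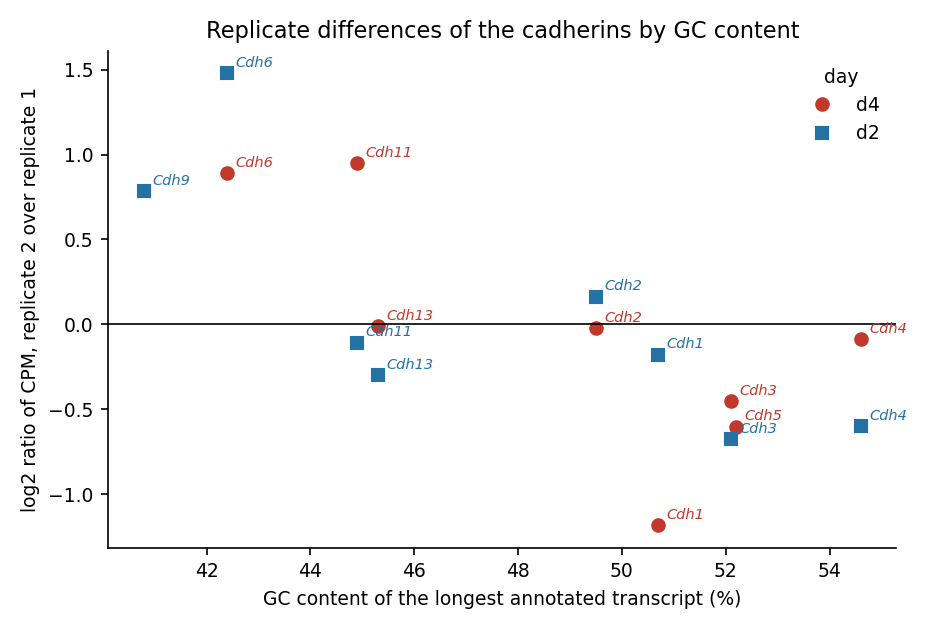
Log2 ratio of replicate 2 to replicate 1 in CPM (y axis) against the GC content of the longest transcript in percent (x axis), with d4 as circles and d2 as squares, for days with at least 10 summed counts. Cdh6 (42.4% GC), with ratios of 1.86 at d4 and 2.79 at d2, lies above 0, and Cdh1 (50.7% GC), with a ratio of 0.441 at d4, lies below.

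Most further classical cadherins were too low to test. Among 11 such genes 5 passed the filter, of which 2 rose, 2 fell and 1 missed the threshold. Beside the counts of this list and those below, 12.9% of all genes tested were higher at d4 and 11.4% lower. The summed CPM of the 11 genes was 21.0 and 23.9 at d4 and 34.1 and 36.8 at d2. Cdh8, a type II cadherin of neurons, had 43 and 139 counts at d4 and 3 and 5 at d2 (adjusted p = 0.00161). Cdh22 had 71 and 81 counts at d4 and 4 and 4 at d2 (adjusted p = 0.000405). Both were higher in each d4 library. Cdh10 was lower, with 5 and 16 counts at d4 and 121 and 194 at d2 (adjusted p = 0.000528), and so was Cdh7, with 1 and 1 counts at d4 and 13 and 11 at d2 (adjusted p = 0.00628). Cdh24 had a log2 fold change of -1.05 and missed the threshold (adjusted p = 0.0111). With these genes counted in the total, the share of Cdh1 differed by -86.9 percentage points between d4 and d2, against -90.3 points among the 9.

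Of 12 tested catenins and links to actin, which couple cadherins to the cytoskeleton, 1 rose, 3 fell and 8 missed the threshold. Over all genes tested, 12.9% were higher, 11.4% lower and 24.3% called in either direction. The median log2 fold change of the list was -0.37, beside -0.03 over all genes. Ctnnb1, the gene for beta-catenin, had 1131 ± 5.72 CPM at d4 and 1306 ± 108 CPM at d2 (SD, n = 2 each), and its log2 fold change of -0.21 did not pass (adjusted p = 0.400). Ctnna1, the gene for alpha-E-catenin, was the one that rose, with 868 and 781 CPM at d4 against 377 and 354 CPM at d2 (log2 fold change 1.18, adjusted p = 0.0026). Plekha7, which joins p120-catenin to microtubules at epithelial junctions, fell by 2.32 on the log2 scale (adjusted p = 0.000788). Ctnnal1, the gene for alpha-catulin, fell by 1.81 (adjusted p = 0.000935). Summed over all 13 genes of the list, the CPM was 2607 and 2520 at d4 and 2355 and 2470 at d2.

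Nectins, which with afadin start the junctions that cadherins then fill, included 2 lower genes of 5 and none higher, with a median log2 fold change of -0.90. Nectin1 had 9.38 and 8.52 CPM at d4 against 79.4 and 61.6 CPM at d2 (adjusted p = 0.000179). Nectin4, an epithelial nectin, had 2 and 4 counts at d4 against 24 and 41 at d2 (adjusted p = 0.00194). The log2 fold changes of Nectin2 (0.26), Nectin3 (-0.90) and Afdn (-0.16) did not pass.

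Transcription factors known to repress Cdh1, mostly through E-boxes, were higher for 5 of 10, lower for 1 and not past the test for 4, with a median log2 fold change of 2.01. Zeb1 had 74.1 and 94.3 CPM at d4, against 1.80 and 2.12 CPM at d2 (log2 fold change 5.42, adjusted p = 5.25e-05). Snai2 had 213 and 427 counts at d4 and 1 and 3 at d2 (adjusted p = 0.000101), and Twist2 had 103 and 106 counts at d4 and 0 and 1 at d2 (adjusted p = 0.000263). Snai3 went the other way, with 0 counts in both d4 libraries against 16 and 19 at d2 (adjusted p = 0.00251). Zeb2 had 34.1 and 115 CPM at d4 against 16.6 and 19.1 CPM at d2, and its log2 fold change of 2.06 did not pass (adjusted p = 0.0203). These factors and Cdh1 were measured in the same cultures at only 2 times, and no relation between them was tested.

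Genes that keep the epithelial state were nearly all lower, as Cdh1 was: 6 of 7 fell, none rose and 1 missed the threshold, with a median log2 fold change of -5.43. Esrp1, a splicing factor of epithelial cells, had 2.28 and 2.29 CPM at d4 against 181 and 180 CPM at d2 (log2 fold change -6.30, adjusted p = 3.95e-05). Epcam, an epithelial adhesion molecule, had 7.61 and 5.64 CPM at d4 against 247 and 256 CPM at d2 (adjusted p = 4.59e-05). Grhl2, a transcription factor of epithelia, had 1.18 and 0.411 CPM at d4 against 66.7 and 54.4 CPM at d2 (adjusted p = 0.000121). Among 5 markers of surface epithelium and trophoblast only Cdx2, which posterior mesoderm also expresses, passed the filter, with 8.96 and 6.93 CPM at d4 against 0 and 0.152 CPM at d2 (adjusted p = 0.000382). Krt14, Trp63 and Elf5 had at most 5 counts in a library, and the keratin gene Krt5 was at 0 in all 4 libraries.

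Genes for proteins that act with VE-cadherin in EC junctions were mostly higher: 8 of 12 rose at d4, none fell and 4 did not pass. Their median log2 fold change was 2.93. Kdr, the VEGF receptor that associates with VE-cadherin, had 600 and 462 CPM at d4 against 0.653 and 0.682 CPM at d2 (log2 fold change 9.62, adjusted p = 3.95e-05). Pecam1, a further adhesion molecule of ECs, had 108 and 87.4 CPM at d4 against 2.45 and 2.88 CPM at d2 (adjusted p = 5.10e-05). Kdr and Pecam1 also belong to the EC markers counted above, so these lists are not separate observations. Ptprb, a phosphatase that acts on VE-cadherin, had 778 and 913 counts at d4 and 0 and 2 at d2 (adjusted p = 6.77e-05). Cldn5, the claudin of EC tight junctions, had 1.77 and 2.23 CPM at d4 and 2.12 and 0.910 CPM at d2, which overlapped (adjusted p = 0.508).

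Genes for the maturation, shedding and turnover of cadherins included 3 higher and 1 lower of 9, beside 12.9% and 11.4% of all genes tested. Their median log2 fold change was 0.94. Pcsk5, a proprotein convertase, had 62.7 and 74.7 CPM at d4 against 0.327 and 0.834 CPM at d2 (log2 fold change 6.85, adjusted p = 7.08e-05). Its relative Pcsk6 fell by 2.42 on the log2 scale (adjusted p = 0.00179). Adam10, the protease that sheds the outer part of several cadherins, had 70.6 and 125 CPM at d4 against 22.5 and 33.8 CPM at d2 (adjusted p = 0.00611).

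More distant cadherins also changed in both directions. Among 8 delta protocadherins, adhesion molecules without a beta-catenin site, 4 rose, 2 fell and 2 missed the threshold, with a median log2 fold change of 0.54. Pcdh7 had 65.7 and 102.2 CPM at d4 against 0.490 and 0.455 CPM at d2 (log2 fold change 7.45, adjusted p = 5.25e-05). Pcdh12, known from endothelium, had 381 and 374 counts at d4 and 0 and 4 at d2 (adjusted p = 0.00025). Pcdh18 had a log2 fold change of 2.45 (adjusted p = 0.000565). Pcdh1 fell by 1.86 on the log2 scale (adjusted p = 0.00627), and Pcdh8 had 1 and 0 counts at d4 against 13 and 19 at d2 (adjusted p = 0.00459).

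The giant cadherins of planar polarity, the FAT, dachsous and CELSR genes, had 2 higher, 3 lower and 3 not past the test among 8, with a median log2 fold change of -1.54. Fat4 had 40.3 and 39.7 CPM at d4 against 1.80 and 1.36 CPM at d2 (adjusted p = 7.23e-05), and Dchs1, which encodes its ligand, had 22.9 and 16.4 CPM at d4 against 5.55 and 3.64 CPM at d2 (adjusted p = 0.00242). Celsr3 had 1.77 and 1.88 CPM at d4 against 33.0 and 24.3 CPM at d2 (adjusted p = 0.000134), and Fat1 fell by 1.73 on the log2 scale (adjusted p = 0.00213).

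**Figure D5:**
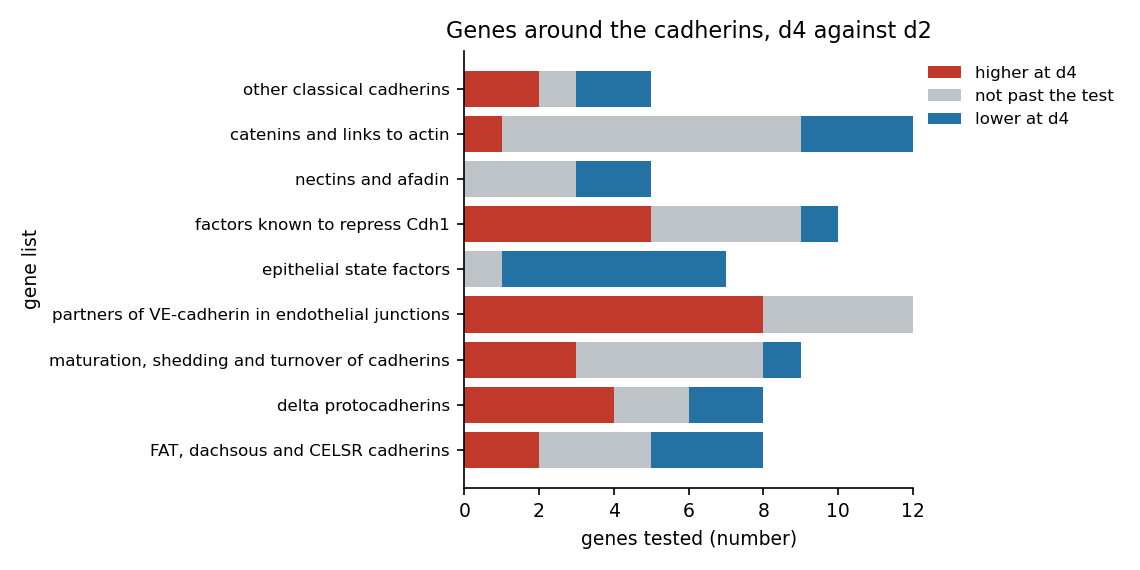
Number of tested genes (x axis) that were higher at d4, not past the test or lower at d4 in each list of related genes (y axis). Partners of VE-cadherin show 8 higher and none lower of 12 tested, and epithelial state genes show none higher and 6 lower of 7. Over all genes tested, 12.9% were higher and 11.4% lower.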

How the data were processed

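The deposited table holds raw counts per gene, which the authors made by checking reads with FastQC, trimming them with cutadapt, aligning them to mm10/GRCm38 with STAR and counting them with featureCounts. Reads were paired, 75 bp long and strand-specific, and reads that map to several places were not counted. Sources name the forward and the reverse strand for the table. Antisense genes that overlap Cdh2, Cdh5 and Cdh9 had 0 counts in all 4 libraries, while Cdh2 itself had 1256 and 1778 counts at d4. Which of the 2 names applies to the table was not tested further. The annotation is named both as a GENCODE and as an Ensembl release. No values were normalized before deposit, and no gene had been filtered out: 28944 of 55487 genes had 0 counts in all 4 libraries. Symbols, exon lengths and the GC content of the longest transcript came from a GENCODE annotation of GRCm38 and matched 55227 identifiers.

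Genes were kept where a proportion test against 0.5 CPM had an adjusted p under 0.05 at d4 or d2 (14932 genes). The comparison used R 4.3.3 and edgeR 4.0.16 with TMM factors. A quasi-likelihood model held a term for day (glmQLFit), tested two-sided by glmQLFTest at a Benjamini-Hochberg adjusted p under 0.01 over all genes tested. The biological coefficient of variation was 23.6%. Ratios of counts carry exact 95% binomial intervals. The p-values rest only on the spread between 2 libraries per day, with that of each gene drawn towards the trend over all genes tested. Alternatives were other scaling factors, no filter, the edgeR expression filter, DESeq2 1.42.0, voom of limma 3.58.1, an adjusted p under 0.05, the replicate number as a block, counts thinned to equal depth, each library left out, and shares per kb, with 11 further classical cadherins or without Cdh13. Leaving out libraries in DESeq2 and removing a GC trend were added after the data had been seen.

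Members and gene lists were chosen with earlier results of these data known. Named genes are the 9 members, all genes of a related-gene or marker list with at most 5 tested, otherwise, in the lists of related genes, the 3 with the smallest adjusted p and any called against the majority of their list, and the 3 profiles nearest to Cdh1 and to Cdh5. Chromosomal neighbours, Pou5f1, Emcn, Krt5, Ctnnb1, Zeb2, Cldn5 and Gm45257 fall outside this rule and were named after their values were seen. On simulated counts, the fit recovered 1.49% of 67 genes with a change of 1 log2 unit, 73.1% of 67 at 2 log2 units and 92.4% of 66 at 3, and it made 2 false calls among 14932 genes.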

Additional observations from a re-analysis of the deposited data

How the results depend on the processing

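Of 171 log2 fold changes of the 9 cadherins under 19 alternatives each, 169 kept their direction. Both exceptions were Cdh4, never called, which had -0.17 (edgeR) and -0.13 (DESeq2) without d2 replicate 2. Calls of the members remained 4 higher and 2 lower under every other scaling, filter, tool and threshold tried, except that Cdh3 was added to the lower ones with no filter, with the replicate number as a block, and with a GC trend removed with or without the block (3 lower in each). The range was 0 to 4 higher and 0 to 2 lower when 1 library was left out in edgeR, the 0 coming from either d2 library, and 4 higher and 2 lower throughout in DESeq2. The cause of the loss was not tested; folds kept their direction.

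Over all genes, the counts of higher and lower genes (1933 and 1695) became 2901 and 2873 with no filter, 2991 and 2679 at an adjusted p under 0.05, 2750 and 2601 with a GC trend removed, and 0 to 2264 and 0 to 2457 when 1 library was left out in edgeR, while DESeq2 gave 1247 and 1127 without d4 replicate 1, 1267 and 1449 without d4 replicate 2, 1032 and 726 without d2 replicate 1, and 967 and 717 without d2 replicate 2. With the replicate number as a block they were 3478 and 3496, and 3141 and 3062 with the block and the GC trend removed. The labels do not say that a number marks a shared experiment, and with 2 pairs the check was a single correlation, r = 0.57 across genes between the replicate differences of d4 and d2. The replicate ratios of both days also ran with GC content (rho -0.497 at d4 and -0.737 at d2). Under the block Cdh3 had an adjusted p of 0.000169, and 0.000938 with the GC trend removed as well. No other call of a member changed with the block.

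The difference in share of cadherin CPM, d4 minus d2, was -90.3 percentage points for Cdh1, -91.7 per kb and -86.9 with the further classical cadherins. For Cdh11 it was 48.2, and 37.9 per kb, and it ran between 37.96 and 58.53 when 1 library was left out. For Cdh5 it was 22.0, and 35.3 per kb, and it ran between 15.13 and 28.85 when 1 library was left out. For Cdh13 it was 0.687, and 0.481 per kb. For Cdh3, -0.166 turned to 0.618 per kb and ran between -0.605 and 0.274 when 1 library was left out (0.274 without d4 replicate 2 and 0.151 without d2 replicate 1). With 2 libraries per day, the simulation recovered 1.49% of genes changed by 1 log2 unit and 73.1% at 2, so Cdh3, Cdh4 and Cdh13 are not shown to be unchanged.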
